A study of Mus musculus with 12 samples.

Results

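The goblet cell mucus genes are 10 genes that build, modify or accompany the mucus of the colon: Muc2, Fcgbp, Clca1, Agr2, Tff3, Zg16, Spdef, Muc4, Muc13 and Spink4. They were taken by name after the Ensembl identifiers of the count tables had been matched to mouse gene symbols. All 10 were found among the 38924 genes of the tables, and all 10 passed the filter on low counts. RNA-Seq was carried out on the proximal colonic mucosa of 12 female C57BL/6 mice at 6 weeks of age, of which 6 were APC Min/+ and 6 were wild type (WT). APC Min/+ mice carry 1 truncated germline copy of Apc, and at this age the study looked for changes that come before visible neoplasia. Each mouse gave 1 library, and mice of different genotypes were kept in different cages, so that cage and genotype cannot be told apart. The comparison asks whether the mucus genes differ between the genotypes before polyps form, and whether they rise and fall together from mouse to mouse.

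Goblet cells fill their granules with Muc2, a very large secreted mucin that swells on release into the gel covering the colonic surface. Fcgbp, Clca1, Zg16 and Tff3 are released with it. Fcgbp is a large protein bound into the mucin network, Clca1 is a protease that acts on Muc2, Zg16 is a lectin that binds bacterial cell walls, and Tff3 is a trefoil peptide of mucosal repair. Agr2 is a protein disulfide isomerase of the endoplasmic reticulum that Muc2 assembly needs, and Spdef is the Ets family factor that drives goblet cell maturation. Spink4 is a small Kazal-type inhibitor of goblet cells. Muc4 and Muc13 are mucins anchored in the cell membrane, and Muc13 is also made by absorptive cells. In bulk tissue, fewer goblet cells and less RNA per goblet cell cannot be told apart.

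RefSeq promoter sequences of the GRCm38.p6 build were found for 6 of the 10 genes. They are shown for the gene of the gel-forming mucin, for the pair that moved with it or against it across mice (Agr2 and Fcgbp), and for the goblet cell factor Spdef. Each is the 250 bases before the annotated start, 5′ to 3′ on the strand of the gene. Capitals mark matches, on either strand, to the letters searched, which were CAGCTG (an E-box, the kind of site bound by basic helix-loop-helix factors such as Atoh1), CGGAT (the core preferred by Spdef), TTTATG (Cdx factors), TGTTTAC (Foxa factors) and TATAAA (the TATA box).
Muc2, chr7:141690090-141690339, forward strand: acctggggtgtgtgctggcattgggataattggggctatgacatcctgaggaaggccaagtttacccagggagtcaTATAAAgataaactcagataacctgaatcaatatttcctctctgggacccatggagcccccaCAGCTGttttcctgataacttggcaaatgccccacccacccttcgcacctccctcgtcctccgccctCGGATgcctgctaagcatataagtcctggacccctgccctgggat
Fcgbp, chr7:28070986-28071235, forward strand: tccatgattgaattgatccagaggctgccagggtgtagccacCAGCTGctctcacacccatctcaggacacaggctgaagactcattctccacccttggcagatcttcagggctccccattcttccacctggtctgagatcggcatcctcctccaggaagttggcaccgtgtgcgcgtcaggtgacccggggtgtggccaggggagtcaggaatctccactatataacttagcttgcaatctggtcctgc
Agr2, chr12:35992675-35992924, forward strand: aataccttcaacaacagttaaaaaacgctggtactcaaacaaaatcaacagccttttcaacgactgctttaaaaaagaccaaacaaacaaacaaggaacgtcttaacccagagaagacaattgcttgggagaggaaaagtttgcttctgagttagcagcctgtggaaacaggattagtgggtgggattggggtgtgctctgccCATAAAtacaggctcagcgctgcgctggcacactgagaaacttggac
Spdef, chr17:27728952-27729201, reverse strand: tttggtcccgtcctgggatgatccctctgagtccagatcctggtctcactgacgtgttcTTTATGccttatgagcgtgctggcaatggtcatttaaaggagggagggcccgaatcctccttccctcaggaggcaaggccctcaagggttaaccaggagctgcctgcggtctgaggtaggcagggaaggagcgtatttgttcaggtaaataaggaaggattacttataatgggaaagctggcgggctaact
The Muc2 window held TATAAA 174 bases, CAGCTG 112 bases and CGGAT 45 bases before the start. CAGCTG was also found 208 bases before the start of Fcgbp. TTTATG was found 191 bases before the start of Spdef and, on the opposite strand, 47 bases before that of Agr2. Among 32851 mouse promoter windows of the same length, CAGCTG was found in 13%, CGGAT in 13.4%, TTTATG in 10.8%, TATAAA in 12.4% and TGTTTAC in 3.17%. Of the 7 windows of these genes (Muc13 has 2), TGTTTAC was in 0, CAGCTG in 2, CGGAT in 1, TTTATG in 3 and TATAAA in 2. These matches describe the letters in the windows and are not binding sites. In GENCODE M21 the transcripts of Agr2 and Spdef begin a few bases inside the windows shown.

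Counts on genes summed to between 50313805 and 197914821 per mouse, and the lowest count of any of the 10 genes in any mouse was 1934 (Spdef), so that counting error was not the limit for any of them. The epithelial marker Epcam was at 1239 to 1624 CPM (counts scaled to library size with TMM factors) and the gastric mucin gene Muc5ac at no more than 0.05 CPM. Markers of smooth muscle were also abundant in tissue labelled mucosa, with Myh11 at 1423 to 2401 CPM. Apc was at 164 to 216 CPM in the APC Min/+ mice and at 154 to 239 CPM in the WT mice (log2 fold change 0.05, SE 0.12), and a count per gene does not tell the mutant copy from the normal one. APC Min/+ mice M10_2 and M13_1 stood apart from the other 10 mice, their labels giving the same tissue. The posterior Hox genes Hoxa13, Hoxb13 and Hoxd13 gave a sum of 467 CPM in mouse M10_2 and of 545 CPM in mouse M13_1, against 0.976 to 2.86 CPM in the other 10 mice. Whether their tissue came from the same segment of the colon as that of the other mice was not tested. The genotype difference of each mucus gene is given with and without these mice.

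In WT mice the most abundant mucus gene per length was Muc2, at 2860.0 RPKM (counts scaled to exon length and to the total count on genes) ± 1184 (SD, n = 6). Zg16 followed at 2362 ± 396 RPKM, within the spread of Muc2. Spink4, below Zg16 by more than their spread (1149 ± 279 RPKM), Agr2 (1048 ± 497 RPKM), Tff3 (807 ± 86.0 RPKM), Clca1 (669 ± 179 RPKM) and Muc13 (507 ± 42.1 RPKM) formed a descending series in which neighbours differed by less than the sum of their SDs. Fcgbp, at 118 ± 69.6 RPKM, was below Muc13 by more than their spread and was not separated from Spdef, at 40.9 ± 11.6 RPKM. Muc4 was lowest, at 12.7 ± 2.45 RPKM, below Spdef by more than their spread. Together the 10 genes took between 1.10% and 2.44% of all counts on genes in a mouse.

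Lengths and counts of some of these genes depend on the gene model. The deposited exon length of Muc2 (ENSMUSG00000025515.9) was 2032 bp, against 7127 bp over all its exons in GENCODE M21, where it lies at chr7:141690340-141754693 on the forward strand. That length is the same as that of 1 annotated Muc2 transcript, which spans chr7:141746832-141754690 at the 3′ end of the gene. The Muc2 values here thus rest on a model much shorter than the gene, and its RPKM is set on that length. Zg16 (636 bp against 1257 bp), Clca1 (2935 bp against 3777 bp) and Spdef (2188 bp against 2305 bp) were also shorter in the deposited tables, and the other 6 genes had the same length in both. Fcgbp (10497 bp, chr7:28071236-28120862) and Muc4 (11757 bp, chr16:32735886-32782391) were the longest models of the set, and Spink4 (477 bp, chr4:40920052-40931395) and Tff3 (493 bp, chr17:31125306-31129646) the shortest.

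No mucus gene differed between the genotypes at an FDR of 0.05. edgeR's quasi-likelihood test called 0 of 20311 genes (0%) at that threshold, and 1071 genes (5.27%) had an unadjusted p-value under 0.05. The 10 mucus genes held 1 of the latter, Spdef. DESeq2 called 29 genes and edgeR's likelihood ratio test 15, and none of these was a mucus gene. With the exact permutation test, 805 genes (3.96%) had an unadjusted p-value under 0.05, again with Spdef as the 1 mucus gene, and 0 passed after adjustment over all genes. The log2 fold changes, APC Min/+ minus WT, were above 0 for 6 of the 10 genes and below 0 for 4, with a median of 0.03 against -0.01 over all genes tested. The median size of the log2 fold change was 0.36 for the mucus genes and 0.15 for all genes. The ranges of the genotypes overlapped for all 10 mucus genes, and were separate for 24 of all genes (0.118%).

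Muc2 ranged from 3807 to 10535 CPM in the WT mice, with a median of 5423 CPM. In the APC Min/+ mice it ranged from 1268 to 6817 CPM, with a median of 3566 CPM. The highest value was that of WT mouse M17_1 and the lowest values were those of M13_1 (1268 CPM) and M10_2 (1714 CPM), while the other 4 APC Min/+ mice, at 2830.3 to 6817 CPM, overlapped the WT mice. The log2 fold change was -0.69 (SE 0.39, FDR = 0.908), and without M10_2 and M13_1 it was -0.31 (SE 0.30).

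Clca1, also released with Muc2, was set apart in M10_2 and M13_1. It lay between 1294 and 2928 CPM in the WT mice, with a median of 2065 CPM. In the APC Min/+ mice it reached 8932 CPM in M10_2 and 4976 CPM in M13_1, while the other 4 stayed between 1272 and 1742 CPM. The log2 fold change of 0.74 (SE 0.46, FDR = 0.908) rested on M10_2 and M13_1, without which it was -0.38 (SE 0.20).

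Zg16 and Tff3 followed the same order at smaller size. Zg16 was at 1228 to 1868 CPM in the WT mice (median 1521 CPM) and at 1180.0 to 1698 CPM in 4 APC Min/+ mice, but 3738 CPM were measured in M10_2 and 2124 CPM in M13_1. Tff3 was at 356 to 493 CPM in the WT mice (median 387 CPM) and at 357 to 373 CPM in 4 APC Min/+ mice, but 814 CPM were measured in M10_2 and 564 CPM in M13_1. The log2 fold change of Zg16 was 0.33 (SE 0.26) over 12 mice and -0.11 (SE 0.16) without these mice, and that of Tff3 was 0.22 (SE 0.21) and -0.16 (SE 0.11). FDR was 0.910 for both over 12 mice.

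Fcgbp had the widest spread of the set, with 8.44-fold between the lowest and the highest of the 10 mice other than M10_2 and M13_1. In the WT mice it ranged from 276 to 2046 CPM, with a median of 1429 CPM. In the APC Min/+ mice it ranged from 332 to 4706 CPM, with a median of 2055 CPM. Low values were found in both genotypes, at 276 CPM in WT mouse M17_1, 332 CPM in APC Min/+ mouse M2_A and 548 CPM in WT mouse M18_2a, and the other 9 mice were at 1138 CPM or above. The log2 fold change was 0.82 (SE 0.55, FDR = 0.908), and 0.36 (SE 0.56) without M10_2 and M13_1.

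Agr2 ranged from 893 to 2675 CPM in the WT mice (median 1194 CPM) and from 673 to 1478 CPM in the APC Min/+ mice (median 937 CPM). The WT mouse M17_1 was again highest, at 2675 CPM, and the remaining 11 mice lay at 1478 CPM or below. Its log2 fold change was -0.39 (SE 0.28, FDR = 0.908) and, without M10_2 and M13_1, -0.26 (SE 0.32).

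Spdef had the lowest unadjusted p-value of the set. It ranged from 67.3 to 129 CPM in the WT mice, with a median of 85.8 CPM, and from 21.4 to 91.9 CPM in the APC Min/+ mice, with a median of 59.0 CPM. The lowest values were those of M13_1 (21.4 CPM) and M10_2 (32.8 CPM), and the genotypes overlapped in the range from 67.3 to 91.9 CPM. The log2 fold change was -0.68 (SE 0.30, FDR = 0.908). The exact permutation test gave an unadjusted two-sided p = 0.0303 and an adjusted p = 0.896 over all genes, where 0.00216 is the smallest p the 12 mice allow. Without M10_2 and M13_1 the log2 fold change was -0.35 (SE 0.19), and 0 of the 10 genes was among the 317 genes (1.59% of those tested) with an unadjusted p-value under 0.05 in that fit. With the length slope of each library (the trend of its counts with gene length) added to it, the log2 fold change of Spdef was -0.42 (SE 0.15, unadjusted p = 0.0177 in edgeR's quasi-likelihood test, FDR = 0.9998).

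Spink4 ranged from 424 to 813 CPM in the WT mice (median 504 CPM) and from 203 to 701 CPM in the APC Min/+ mice (median 557 CPM). M13_1 (203 CPM) and M10_2 (267 CPM) were lowest, and the other 4 APC Min/+ mice were within the WT range. Its log2 fold change turned from -0.19 (SE 0.30) to 0.15 (SE 0.21) without them.

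The membrane mucins had the smallest log2 fold changes of the set. Muc13 was at 1348 to 1897 CPM in the WT mice and 1351 to 1962 CPM in the APC Min/+ mice, with a log2 fold change of 0.03 (SE 0.13). Muc4 was at 107 to 181 CPM in the WT mice and 82.4 to 201 CPM in the APC Min/+ mice, with a log2 fold change of 0.02 (SE 0.20). Without M10_2 and M13_1 these values were -0.10 (SE 0.13) and -0.04 (SE 0.21).

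**Figure D1:**
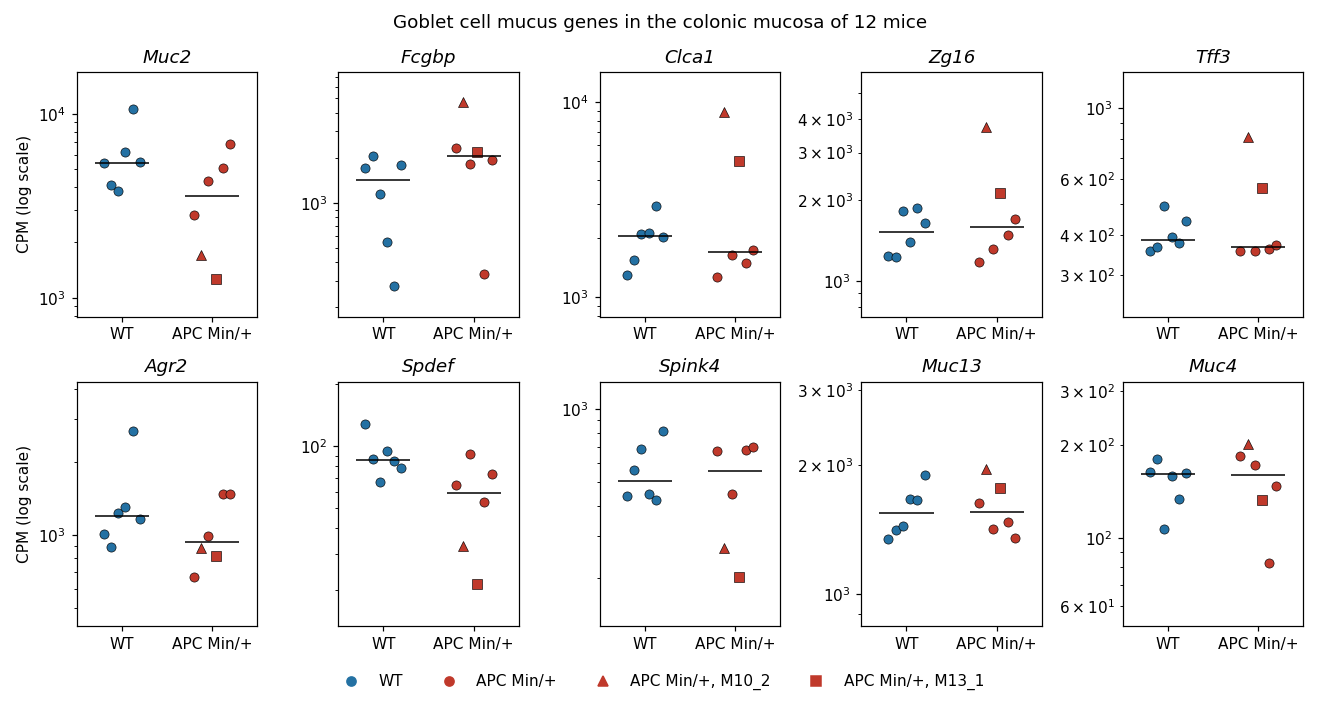
Level of each mucus gene in each mouse, in CPM on a log axis, by genotype. Points are mice, horizontal lines are group medians, and the triangle and square mark M10_2 and M13_1, which are the lowest points for Muc2, Spdef and Spink4 and the highest for Clca1, Zg16 and Tff3.

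The sum of the 10 genes had a median of 13310.1 CPM in the APC Min/+ mice (11199 to 23248 CPM) and of 13724 CPM in the WT mice (12418 to 20963 CPM). What the sum was made of differed in M10_2 and M13_1. Muc2 made up 7.37% of it in M10_2 and 9.03% in M13_1, against 25.3% to 50.3% in the other 10 mice. Clca1 made up 38.4% and 35.4%, against 9.87% to 16.3% in the other 10. Fcgbp made up 20.2% and 15.5%, within the range of 1.32% to 20.8% of the others.

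Clca1, Tff3 and Zg16 were higher in both M10_2 and M13_1 than in any of the other 10 mice, which was also true of 11.8% of all genes tested. Muc2, Spdef and Spink4 were lower in both than in any of the other 10, as were 12.2% of all genes. Relative to the median of the other 10 mice, Clca1 was 5.27-fold in M10_2 and 2.94-fold in M13_1. The median of the 10 mice was 3.06-fold above M10_2 and 4.14-fold above M13_1 for Muc2, 2.49-fold and 3.82-fold for Spdef, and 2.3-fold and 3.03-fold for Spink4. These mice were set apart by their Hox genes, and their difference from the other mice was not tested as a group.

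**Figure D2:**
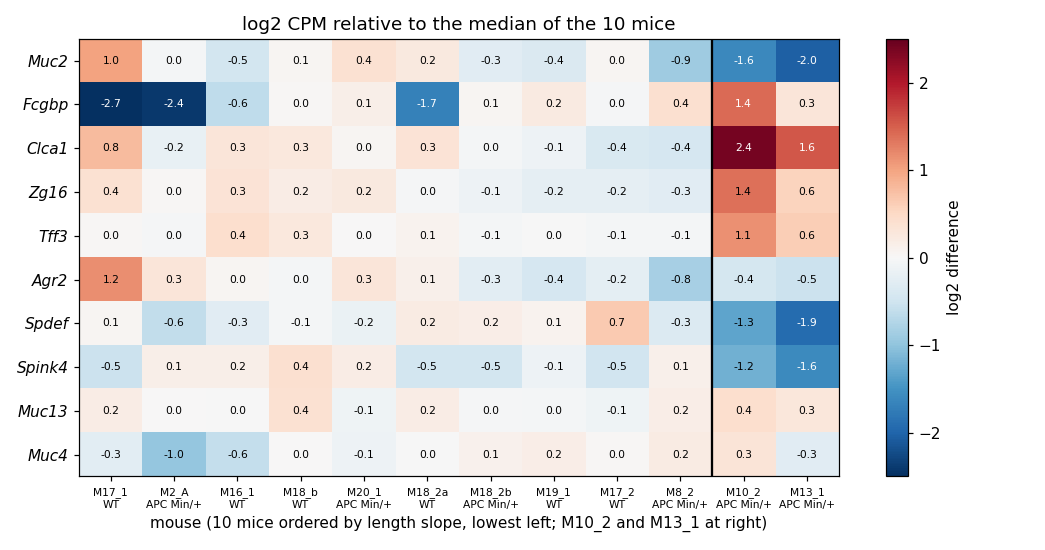
log2 CPM of each mucus gene (rows) in each mouse (columns) relative to the median of the 10 mice other than M10_2 and M13_1, which stand right of the black line. Red is above and blue is below that median, and in the right columns the rows of Muc2, Spdef and Spink4 are blue and those of Clca1, Zg16 and Tff3 are red.

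Other cell type markers also stood apart in these mice. The 6 markers of absorptive colonocytes (Car1, Car4, Slc26a3, Aqp8, Guca2b and Ceacam1) summed to 7206 CPM in M10_2 and 8052 CPM in M13_1, against 21173 to 42813 CPM in the other 10, with Car1 at 966 and 2540.0 CPM against 14622 CPM or more. Guca2b and Ceacam1 were lowest in both mice, as was Car1. Car4 was higher there, at 924 and 953 CPM against 582 CPM or less. Slc26a3 (1500 and 1999 CPM against 438 to 1700 CPM) and Aqp8 (440 and 483 CPM against 4.80 to 552 CPM) were not lower there. The 8 general epithelial markers summed to 9928 and 8507 CPM, within the range of 6581 to 12124 CPM of the other 10. Of these markers, Cdh1 was highest in both mice, at 1491 and 1199 CPM against 871 CPM or less. Cdx2 was lowest in both, at 49.9 and 20.6 CPM against 66.6 CPM or more. Enteroendocrine markers (Chga, Chgb and Neurod1) summed to 175 and 141 CPM, below the 276 to 467 CPM of the others. Adipocyte markers (Adipoq, Plin1 and Fabp4) were each lowest in these mice and summed to 18.3 and 31.9 CPM, against 37.6 to 409 CPM. Of the smooth muscle markers Des and Cnn1 were highest in both mice, and of the leukocyte markers Cd3e and Jchain were lowest in both. The part of cell composition in the values of the mucus genes in M10_2 and M13_1 was not tested.

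The direction of 6 of the 10 log2 fold changes changed when M10_2 and M13_1 were left out. These were Clca1, Tff3, Zg16, Muc4, Muc13 and Spink4, of which only Clca1, Tff3, Zg16 and Spink4 had been further from 0 than 0.1. In that fit 2 genes (Fcgbp and Spink4) were above 0 and 8 below, with a median of -0.14 against -0.01 for all genes. Muc2, Agr2 and Spdef were below 0 in every fit run.

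**Figure D3:**
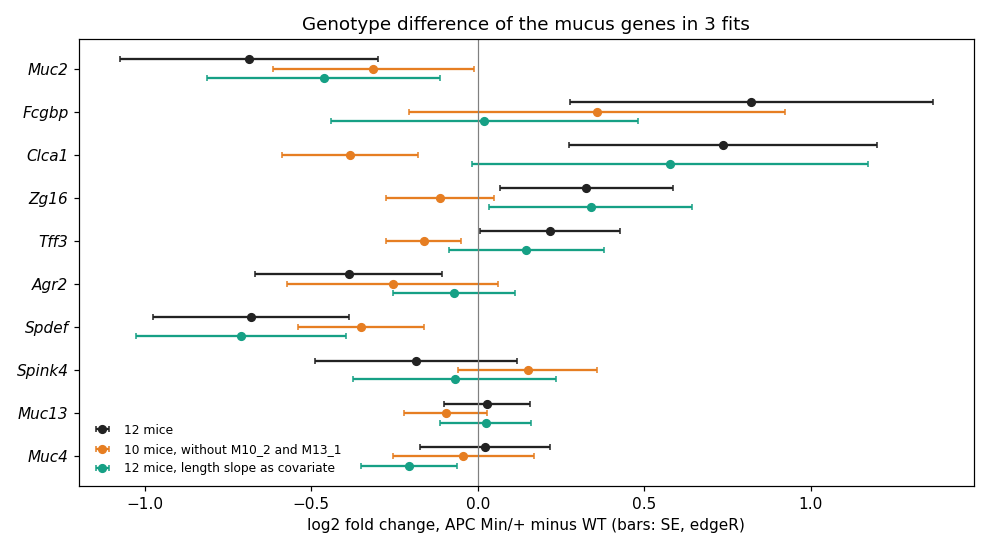
log2 fold change (APC Min/+ minus WT) of each mucus gene with its SE, from edgeR fits to 12 mice, to the 10 mice without M10_2 and M13_1, and to 12 mice with the length slope of each library as a covariate. Clca1 lies at 0.74 in the first and at -0.38 in the second, and Fcgbp at 0.82 in the first and 0.02 with the covariate.

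Libraries also differed in how long and short genes were counted. The length slope of a library, the slope of its log2 CPM (relative to the mean of the 12 mice) on log2 exon length over 14903 genes, ran from -0.138 in M17_1 and -0.122 in M2_A to 0.0723 in M8_2 and 0.0786 in M10_2. Slopes of the genotypes overlapped (exact permutation test, p = 0.271). M17_1, with the lowest slope, also had the largest share of mitochondrial counts, 12.7% against 4.35% to 8.46% in the other mice. Among the 8 epithelial markers it had the lowest CPM of Cdh1, Krt8, Krt19, Vil1 and Cldn7. Its Cdx2 (66.6 CPM) was the lowest of the mice other than M10_2 and M13_1. Its Krt18, at 314 CPM, was the highest of the WT mice, and its Epcam (1364 CPM) was not the lowest of the 12 mice. The high Muc2 and Agr2 and the low Fcgbp of M17_1 were thus measured in a library extreme in length slope and mitochondrial share, and the part of RNA quality was not tested.

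Over the 10 mice without M10_2 and M13_1, the 2 longest genes rose with the length slope. For Fcgbp, Pearson's r was 0.78 (permutation test, p = 0.0102, adjusted p = 0.0334 over 14903 genes) and Spearman's rho 0.76 (p = 0.0151), but r was 0.36 without M2_A and M17_1, the mice farthest from the median slope. For Muc4, r was 0.79 (permutation test, p = 0.00422, adjusted p = 0.0203) and rho 0.89 (p = 0.00109), and r stayed at 0.79 without them. Among all genes, 24.7% had a larger absolute r than Fcgbp and 22.6% a larger one than Muc4.

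Agr2 and Zg16 fell with the slope. For Agr2, r was -0.81 (permutation test, p = 0.00132, adjusted p = 0.0118), rho was -0.83 (p = 0.00480), and r was -0.64 without M2_A and M17_1. For Zg16, r was -0.82 (permutation test, p = 0.00711, adjusted p = 0.0270), rho was -0.90 (p = 0.000750), and r was -0.92 without them. A larger absolute r than that of Agr2 was found for 19.8% of all genes, and than that of Zg16 for 18.3%. The adjusted p of Clca1 (r = -0.67) was 0.0738 in the permutation test, and for Muc2, Tff3, Spdef, Muc13 and Spink4 it lay between 0.183 and 0.679. Without M2_A and M17_1, r was -0.83 for Clca1 and -0.96 for Tff3, whose r over the 10 mice was -0.45. For Muc2, Spdef, Muc13 and Spink4 it lay between -0.57 and 0.38 without them. With the slope as a covariate over 12 mice, the log2 fold change of Fcgbp was 0.02 (SE 0.46), that of Agr2 -0.07 (SE 0.18), that of Muc2 -0.46 (SE 0.35), that of Clca1 0.58 (SE 0.59) and that of Spdef -0.71 (SE 0.32).

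**Figure D4:**
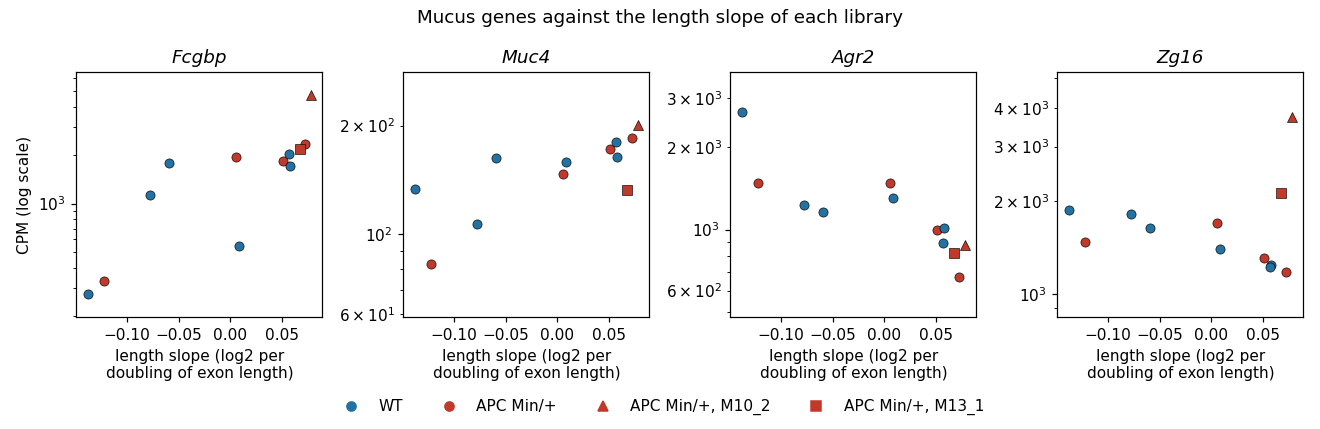
CPM (log axis) of Fcgbp, Muc4, Agr2 and Zg16 in each mouse against the length slope of its library, with WT mice in blue, APC Min/+ mice in red, and the triangle and square for M10_2 and M13_1. Fcgbp and Muc4 are higher at high slopes, and Agr2 and Zg16 are lower there except for Zg16 in M10_2 and M13_1.

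The 10 mucus genes did not move as 1 block from mouse to mouse. Of their 45 pairs, 23 had a positive and 22 a negative Pearson's r of log2(CPM + 0.5) over the 10 mice without M10_2 and M13_1, with a median r of 0.13. The median absolute r was 0.30, against 0.44 over 12338028 pairs from a subset of the genes with a mean of at least 1 CPM. Of the pairs in that subset, 50.2% had a positive r. Within WT mice 24 of 45 pairs were positive (median r 0.06), and within APC Min/+ mice 22 were (median r -0.08). When each gene was taken relative to the general epithelial markers of the same library, 35 of 45 pairs were positive and the median r was 0.47, a scaling that adds the same quantity to every gene of a mouse. With the length slope removed, 29 pairs were positive and the median r was 0.23.

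A group of 4 genes rose and fell together over the 10 mice: Muc2, Agr2, Clca1 and Zg16 had an r of 0.60 to 0.90 in all 6 of their pairs. Ranked by r to Muc2 among 14903 genes, Agr2 was at 17, Clca1 at 1296 and Zg16 at 2362. Ranked by r to Agr2, Muc2 was at 363, Zg16 at 1390 and Clca1 at 1484. Many genes outside the group thus had r values as high. The group was picked from these correlations, and much of its link to Muc2 rested on the mice farthest from the median of Muc2, M8_2 and M17_1, without which r was 0.048 with Clca1 and 0.12 with Zg16. The pair of highest r was Muc2 and Agr2, at 0.90 (permutation test, p = 0.001, adjusted p = 0.0313 over 45 pairs), with a rho of 0.78 (adjusted p = 0.0701). Its r was 0.57 without M8_2 and M17_1 and 0.94 with the length slope removed. For Agr2 and Zg16, r was 0.80 (adjusted permutation p = 0.0313) and rho 0.85 (adjusted p = 0.0675), with an r of 0.68 without M8_2 and M17_1 and of 0.41 with the length slope removed. For Clca1 and Zg16, r was 0.81 (adjusted permutation p = 0.0539) and rho 0.78 (adjusted p = 0.0701). The group did not hold as a whole with M10_2 and M13_1 included, where over 12 mice r was 0.78 for Muc2 and Agr2 but -0.56 for Muc2 and Clca1, -0.45 for Muc2 and Zg16 and -0.03 for Agr2 and Clca1. Over the same 12 mice r was 0.94 for Clca1 and Zg16, 0.92 for Tff3 and Zg16 and 0.92 for Clca1 and Tff3, and M10_2 and M13_1 had the highest levels of all 3 genes.

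Over the 10 mice Fcgbp had a negative r with each gene of this group. With Agr2 its r was -0.79 (adjusted permutation p = 0.0313) and its rho -0.73 (adjusted p = 0.114), with an r of -0.52 without M2_A and M17_1 and of -0.43 with the length slope removed. With Muc2, Clca1 and Zg16 its r was -0.61, -0.57 and -0.46 over the 10 mice, and none of these passed after adjustment. With the length slope removed these were -0.36, -0.11 and 0.49, and over 12 mice r was 0.27 with Clca1 and 0.26 with Zg16. Spdef and Spink4 had an r of -0.71 (adjusted permutation p = 0.130) over the 10 mice and of -0.75 without M2_A and M17_2. With M10_2 and M13_1 included, where both genes were lowest, it was 0.59 over 12 mice and 0.81 within the APC Min/+ mice. Between Spdef and the 4 genes of the group, r lay between -0.30 and 0.27 over the 10 mice. With the length slope removed it was 0.70 with Muc2, 0.60 with Agr2, 0.48 with Clca1 and 0.15 with Zg16. Over 12 mice Spdef and Muc2, both lowest in M10_2 and M13_1, had an r of 0.81 (adjusted permutation p = 0.0220). Their rho was 0.61 (adjusted p = 0.161). The r of Spdef over 12 mice was 0.31 with Agr2, -0.74 with Clca1 and -0.69 with Zg16.

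**Figure D5:**
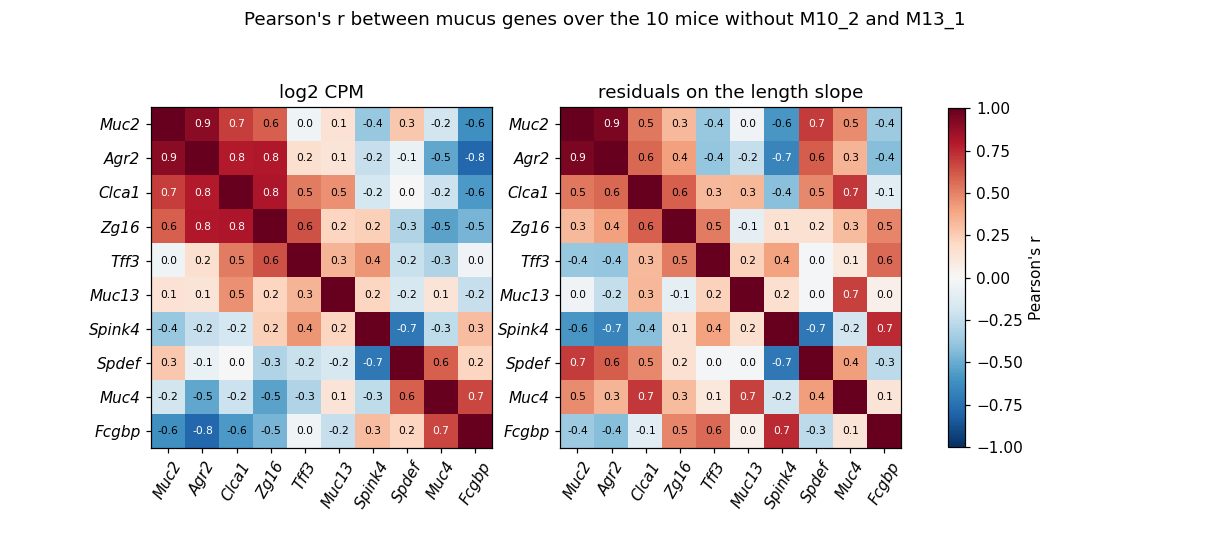
Pearson's r between each pair of mucus genes over the 10 mice without M10_2 and M13_1, for log2 CPM (left) and for residuals on the length slope (right). The red block at the upper left is Muc2, Agr2, Clca1 and Zg16, and Fcgbp, in the last row, is blue against it at the left. At the right Fcgbp is paler against Muc2 (-0.36), Agr2 (-0.43) and Clca1 (-0.11) and red against Zg16 (0.49).

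Genes outside the set were compared with it over the same mice, among 14903 genes with a mean of at least 1 CPM. The highest mean r to the 10 genes was 0.39 over the 10 mice and 0.27 over 12 mice (Xlr4a). Such a mean could not be high for any gene, because the 10 genes did not themselves move together. It cannot tell whether a gene followed the set. Over 10 mice Rpl35a-ps5 (0.38), Degs2 (0.37), Tma7-ps (0.37) and Il4i1 (0.37) came next after a gene without a symbol, ENSMUSG00000083840.2. Over 12 mice these were Zfp672, Fkbp15, Btn1a1 and Pqlc2, at 0.26 to 0.27. Counts of processed pseudogenes such as Rpl35a-ps5 can hold reads of their parent gene and are uncertain.

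The closest gene to each mucus gene was also sought. Over the 10 mice the gene with the highest r was Xlr4a for Muc2 (0.95), Polr2a for Fcgbp (0.996), Cyp2c69 for Agr2 (0.991), Ethe1 for Spink4 (0.98), Ppargc1b for Muc4 (0.97), Prkag2 for Spdef (0.95), Gm8991 for Muc13 (0.95) and Gm6977 for Tff3 (0.86). For Zg16 it was Rps25-ps1 (0.96) and for Clca1 Rpl18-ps1 (0.95), both pseudogenes of ribosomal protein genes. These are the highest of 14902 values each, over few mice that share the length gradient, and are given as a description.

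The wider goblet cell program was read from lists chosen with earlier results of these data known. Of the 9 factors of secretory fate and goblet cell maturation, 5 were above 0 and 4 below in the genotype comparison, 0 were called, and the median log2 fold change was 0.01. The largest was that of Foxa2, a forkhead factor of the gut, at 1.33 (SE 0.46, FDR = 0.908). M10_2 had 38.3 CPM of Foxa2 and M13_1 26.9 CPM, against 3.15 to 11.7 CPM elsewhere. Without these mice its log2 fold change was 0.37. Klf4, a factor of goblet cell differentiation, followed at 0.61 (SE 0.31) and Creb3l1 at 0.49 (SE 0.40), and without M10_2 and M13_1 they were 0.42 (SE 0.33) and 0.14 (SE 0.42). Atoh1, which commits cells to the secretory fate, was not set apart in M10_2 and M13_1 as Spdef was, at 63.1 and 36.7 CPM against 32.0 to 72.5 CPM in the other 10 mice (chosen after its values were seen).

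Of the 10 other mucin genes listed, 9 were matched and 5 tested, 2 above and 3 below 0, with 0 called and a median of -0.11. Muc1, a membrane mucin, had a log2 fold change of 2.99 (SE 0.90, FDR = 0.908) that was 0.00 without M10_2 and M13_1, where it was at 27.5 and 23.3 CPM against 0.747 to 1.58 CPM in the other 10. Muc3a was lowest in M13_1 and M10_2, at 61.2 and 82.7 CPM against 181 to 342 CPM, with a log2 fold change of -0.55 (SE 0.29), and of -0.20 (SE 0.17) without them. Muc6 was below 1 CPM in every mouse, and its log2 fold change turned from -0.23 (SE 0.70) to 0.34 (SE 0.33) without them. Muc5ac, Muc5b, Muc15 and Muc19, at 0.08 CPM or less in every mouse, did not pass the filter.

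Of 19 other goblet cell products and granule genes, 18 were tested, 8 above and 10 below 0, with 0 called and a median of -0.05. M10_2 and M13_1 were both above the other 10 mice for 6 of the 18 and both below for 4, where 11.8% and 12.2% of all genes were. Wfdc2, a secreted protein of the whey acidic protein family, was at 217 and 185 CPM against 19 to 32.8 CPM, and its log2 fold change of 1.76 (SE 0.62, FDR = 0.908) was -0.06 without these mice. Bcas1 was at 212 and 156 CPM against 51.7 to 82.0 CPM, with a log2 fold change of 0.66 (SE 0.31) that was -0.03 without them. Tff2, a trefoil peptide of the stomach, was at 2.17 CPM or less in every mouse and at 0.01 and 0.04 CPM in M10_2 and M13_1 (log2 fold change -1.38, SE 0.79, and -0.84, SE 0.68, without them).

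Retnlb and Guca2a, named after their values were seen, were among the 4 genes lowest in M10_2 and M13_1. Retnlb, which codes for a bactericidal goblet cell protein, was at 2.06 and 2.81 CPM against 13.2 to 171 CPM in the other 10. Guca2a, which codes for the peptide guanylin, was at 315 and 185 CPM against 1155 to 1786 CPM.

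Of the other marker lists, smooth muscle had 5 of 6 genes above 0 with a median log2 fold change of 0.34, 3 at an unadjusted p-value under 0.05 (Des, Cnn1 and Actg2) and 0 called. Of all genes tested, 5.27% had such a p-value in edgeR's quasi-likelihood test. Without M10_2 and M13_1, 6 of the 6 were above 0 and 2 had an unadjusted p-value under 0.05, as had 1.59% of all genes. The summed level of the smooth muscle markers was 4391 to 6960 CPM in the APC Min/+ mice and 4636 to 5841 CPM in the WT mice. Epithelial markers had 6 of 8 genes above 0 (median 0.06), absorptive colonocyte markers 3 of 6 (0.04), leukocyte markers 2 of 6 (-0.12), enteroendocrine markers 0 of 3 (-0.36), tuft cell markers 0 of 3 (-0.26), Paneth cell markers 1 of 3 (-0.21), adipocyte markers 1 of 3 (-0.05) and pancreatic acinar markers the 1 tested (0.99), with 0 called in each. The 3 posterior Hox genes were all above 0, with a median of 7.76 that rested on M10_2 and M13_1, and 0 were called. When the mucus genes were taken relative to the general epithelial markers, the difference for Spdef was -0.85 (exact permutation test, unadjusted p = 0.0346) and that for Muc2 -0.88 (exact permutation test, unadjusted p = 0.0996). Without M10_2 and M13_1 these differences were -0.49 and -0.44.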

How the data were processed

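Paired-end RNA-Seq was carried out on proximal colonic mucosa of 12 mice. Per the labels, the authors mapped the reads to GRCm38.p2 with STAR 2.3.0 and made gene counts with featureCounts. They deposited 1 table per mouse of raw, not normalized counts of 38924 genes with exon lengths. Strand use, annotation release and library kit were not given in the sources used here. Symbols were taken from GENCODE M21 (37607 identifiers matched). Groups are the genotypes in the labels, which give no batch or shipment. The paper states that the mice arrived in several shipments and that the mice for RNA-Seq were drawn from all of them. Which mouse came from which shipment is not given, so shipment was not in any fit.

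The 20311 genes that reached 10 counts in 3 or more mice were tested with edgeR 4.0.16 (quasi-likelihood, TMM factors 0.906 to 1.10, Benjamini-Hochberg FDR, run in R 4.3.3), after the code had been tested on simulated data. The SE is the log2 fold change divided by the root of F. CPM used the counts on tested genes times the TMM factor, and RPKM used all counts on genes. Permutation tests (scipy 1.17.1) were two-sided on log2(CPM + 0.5), exact over 6 against 6 mice and with 100000 resamples for correlations over 10 mice. At these depths 3 counts are 0.0152 to 0.0596 CPM, which covers counting error only. Alternatives were DESeq2 1.42.0, RLE factors, the likelihood ratio test, no filter, each mouse left out, M10_2 and M13_1 left out, epithelial scaling, and pseudocounts of 0.5 and 5. The length slope was added after seeing the data. All 10 members are named, and of each other goblet cell list the 3 tested genes with the largest absolute log2 fold change. The members, lists and tests were chosen with earlier results of these data known.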

Additional observations from a re-analysis of the deposited data

Results flagged for a closer look

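In groups of 6 mice, 22 sets of values (each of the 10 genes and their sum, in each genotype) were searched for a single mouse far from the others of its genotype, and 4 were found. Chance gives about 1 in 20 for independent sets of normally distributed values. These sets were CPM values of the same mice, and the sum holds the 10 genes. The 4 can therefore not be set against that rate. WT mouse M17_1 stood out for Muc2, at 10535 CPM with the next WT mouse at 6193 CPM, for Agr2, at 2675 CPM with the next at 1298 CPM, and for the sum of the 10 genes, at 20963 CPM with the next at 15468 CPM. Its library had the lowest length slope and the largest mitochondrial share of the 12, and their part in these values was not tested. APC Min/+ mouse M10_2 stood out for Zg16, at 3738 CPM with the next, M13_1, at 2124 CPM.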

How the results depend on the processing

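No mucus gene passed an FDR of 0.05 in any of the alternatives that give one, and over all genes the count of calls was 0 except with DESeq2 (29) and the likelihood ratio test (15). Of 220 values of the mucus genes under 22 alternatives each, 192 kept their direction and 28 did not. Muc2, Agr2 and Spdef kept theirs throughout. With 1 mouse left out, between 3 (without M10_2) and 6 genes were above 0, against 6 in all mice, and the log2 fold change lay between -0.0096 and 0.29 for Tff3, -0.070 and 0.16 for Muc4, -0.038 and 0.10 for Muc13, 0.15 (without M10_2) and 0.91 for Clca1, 0.46 (without M10_2) and 1.04 for Fcgbp, -0.95 and -0.44 (without M17_1) for Muc2, -0.50 and -0.09 (without M17_1) for Agr2, 0.024 (without M10_2) and 0.43 for Zg16, -0.32 and -0.025 (without M13_1) for Spink4, and -0.88 and -0.51 (without M13_1) for Spdef, whose unadjusted p was under 0.05 in 5 of the 12 fits. Without both M10_2 and M13_1, 2 genes were above 0, and Clca1 was -0.38, Tff3 -0.16, Zg16 -0.11, Muc4 -0.043, Muc13 -0.10 and Spink4 0.15. With the length slope added as a covariate to that fit, 1 gene was above 0 (Spink4, 0.18), and Fcgbp was -0.11, Clca1 -0.26, Tff3 -0.14, Zg16 -0.027, Muc4 -0.20 and Muc13 -0.078. With the covariate over all mice Muc4 was -0.21. Relative to epithelial markers Muc4 was -0.061 and Muc13 -0.022, and as a difference of mean log2 CPM Muc4 was -0.014 with a pseudocount of 0.5 and -0.012 with one of 5. The count of positive pairs moved from 23 to 35 with epithelial scaling. Of these shifts the cause was not tested. No paired analysis was possible because the labels name no pairs of mice across the genotypes, and the replicate numbers used here only name mice. Depth did not limit the mucus genes.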
